A study of Mus musculus with 24 samples.

Results

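Macrophages and other myeloid cells of the left ventricle were followed through 45 genes that were chosen by symbol, as a list of their surface markers, receptors, enzymes and secreted proteins, with earlier results of these data known. A probe with a gene name was found for 35 of the 45 (77.8%), out of 17742 genes measured in all, and these 35 were read by 44 probes, with 7 genes read by more than 1. Ly86, Tyrobp, Lyz1, Lyz2, Cybb, Cyba, H2-Ab1, H2-Eb1, Nos2 and Chil3 had no probe of their name and have no value here, so the defining markers Lyz2 and H2-Ab1 could not be read.

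Total RNA came from the non-scarred free wall of the left ventricle of mice aged 6 weeks, on a C57BL6/J;129S1/SvImJ background, and 4 Hira CKO and 4 control mice were compared. Hira CKO mice were aMHC-cre Tg/+; Hira flox/-, with 1 floxed and 1 deleted allele of Hira, the gene of a chaperone that loads histone H3.3 into chromatin. Control mice were aMHC-cre Tg/+; Hira flox/+, so they carried the same Cre and also lost 1 allele in the cells that express it. By the study's cross all mice also had 1 Rosa26 YFP reporter allele. The Cre is driven by the α-myosin heavy chain promoter, which is active in cardiomyocytes, and myeloid cells are therefore not the cells in which the floxed allele is deleted, although the deleted allele of Hira CKO mice is missing from all their cells. Hearts were flushed free of blood with PBS before dissection. The RNA of each mouse was hybridized to 3 arrays, 24 in all. The Hira CKO mice are named CKO_6300, CKO_6499, CKO_6672 and CKO_6707 and the control mice control_6706, control_6299, control_6675 and control_6497, and where the level of every mouse is given, the mice of a group follow this order.

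The healthy heart holds resident macrophages, many of them seeded before birth and maintained by local division, which clear debris and dying cells and carry the mannose receptor and CD163. A further population, marked by the chemokine receptor CCR2, is fed by blood monocytes and enters the myocardium in numbers after injury. Macrophages depend on the growth factor CSF1 and its receptor and on the transcription factor PU.1, which binds purine-rich boxes in the promoters of myeloid genes.

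Of the 35 measured genes, 4 were higher in Hira CKO ventricles and 0 were lower. Ccr2, the receptor by which monocytes are drawn into tissue, was 2.20-fold higher, Gpnmb, a glycoprotein of phagocytes loaded with lipid and debris, was 3.66-fold higher, Mpeg1, which encodes the pore-forming protein perforin-2 of phagocyte vacuoles, was 1.73-fold higher, and Cd68, a glycoprotein of macrophage lysosomes, was 1.62-fold higher. The remaining 31 did not pass the test, and these included the leukocyte marker Ptprc, the macrophage marker Adgre1, the growth factor receptor Csf1r and all 3 genes of complement C1q. Calls were made where limma gave an adjusted p under 0.05, with the adjustment over the 17742 genes. By that rule 4.94% of all genes were higher and 9.65% were lower, against 11.4% of the members higher and 0 lower. In a whole tissue, fewer or more cells of a type and less or more RNA per cell cannot be told apart.

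The promoters of the 4 called genes are shown so that the PU.1 box can be looked for in them. Each is the 250 bases before the start of the gene, 5′ to 3′ on the strand of the gene, from RefSeq on build GRCm38.p6, with the letters of the purine box GAGGAA in capitals where they occur on either strand.
Ccr2, chr9:124101933-124102182, plus strand: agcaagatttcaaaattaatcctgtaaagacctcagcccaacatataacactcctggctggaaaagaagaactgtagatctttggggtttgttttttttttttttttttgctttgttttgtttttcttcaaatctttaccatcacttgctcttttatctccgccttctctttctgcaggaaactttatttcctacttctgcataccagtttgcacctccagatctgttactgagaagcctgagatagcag
Gpnmb, chr6:49036268-49036517, plus strand: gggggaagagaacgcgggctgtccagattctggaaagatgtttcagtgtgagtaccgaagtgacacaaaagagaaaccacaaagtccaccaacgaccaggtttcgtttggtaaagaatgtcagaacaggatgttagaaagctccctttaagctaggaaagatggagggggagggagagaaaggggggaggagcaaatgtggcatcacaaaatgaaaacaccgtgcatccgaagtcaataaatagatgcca
Mpeg1, chr19:12460520-12460769, plus strand: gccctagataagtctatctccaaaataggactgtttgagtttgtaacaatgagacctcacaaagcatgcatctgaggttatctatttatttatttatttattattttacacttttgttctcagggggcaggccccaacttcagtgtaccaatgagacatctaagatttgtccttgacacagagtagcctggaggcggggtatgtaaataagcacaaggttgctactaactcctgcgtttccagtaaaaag
Cd68, chr11:69666171-69666420, minus strand: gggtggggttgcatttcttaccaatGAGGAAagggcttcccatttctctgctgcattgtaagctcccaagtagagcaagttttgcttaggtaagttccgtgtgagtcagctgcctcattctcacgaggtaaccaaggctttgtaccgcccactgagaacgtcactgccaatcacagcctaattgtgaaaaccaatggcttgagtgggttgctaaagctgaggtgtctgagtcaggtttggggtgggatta
Of these 4, Cd68 held the box, which began 225 bases before the start of the gene, and Ccr2, Gpnmb and Mpeg1 did not hold these letters in this window. A promoter entry was present for 32 of the 45 genes, and 14 of the 32 (43.8%) held GAGGAA in at least 1 promoter, against 25.9% of the 27025 genes with an entry. The 14 included Ptprc, Aif1, Laptm5, Csf3r, Mrc1, Marco, Fcgr1, Fcgr3, Trem2, Clec7a, C1qb, C1qc and Retnla beside Cd68, and so 13 of the 14 were genes that did not pass the test. A match of letters is a description of sequence and not a bound site.

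Values are linear intensities, which the submitters scaled by the median of each array (513.2 on array number 1 of control_6706), and the level of a mouse is the mean of its 3 arrays. A change common to all genes would therefore not be visible. An array had from 0 to 2429 negative values among its 26423 probes, and values under 1 were raised to 1. Fold changes are differences of mean log2 intensity, Hira CKO minus control, whose median over all genes was -0.14, and -0.01 after quantile normalization, so changes are best read against these medians. The 35 members had a median log2 fold change of -0.03, or 0.03 after quantile normalization, with 17 above 0 and 18 below. Under quantile normalization 5 members were higher (14.3%) and 0 lower, against 7.28% and 5.69% of all genes. Arrays of 1 mouse differed by a median SD of 0.13 on the log2 scale over the members, and standard errors of the fold changes ran from 0.09 to 0.75. Hira itself had a mean intensity of 201.5 ± 25.6 in Hira CKO mice and 231.3 ± 26.6 in control mice (SD, n = 4 each, adjusted p = 0.282), and the position of its probe relative to the deleted exon was not used here.

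Of the 2 chemokine receptors, Ccr2 was called higher and Cx3cr1 was not called. Ccr2 had intensities of 1089, 1570, 1363 and 1806 in the Hira CKO mice, against 520.1, 732.9, 639.6 and 741.8 in the control mice. The lowest Hira CKO mouse lay above the highest control mouse, and the same was true of single arrays, with all 12 Hira CKO arrays between 976.0 and 1953 and all 12 control arrays between 502.8 and 878.4. The means were 1457 ± 305 in Hira CKO and 658.6 ± 103 in control (SD, n = 4 each), which is a log2 fold change of 1.14 with a standard error of 0.18 (adjusted p = 0.00599). A further Ccr2 probe read 1272, 1587, 1386 and 1627 in Hira CKO mice and 327.0, 583.3, 364.1 and 392.5 in control mice. There too the groups did not overlap, with a log2 fold change of 1.85 (standard error 0.18). Ccr2 was called under each of the 23 alternative settings that were tried, with log2 fold changes between 1.03 and 1.49.

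Cx3cr1, the fractalkine receptor of resident macrophages and of patrolling monocytes, had intensities of 1486, 1369, 1336 and 929.0 in Hira CKO mice, against 593.4, 1431, 636.4 and 2895 in control mice. Control mice lay both above and below the Hira CKO mice, and control_6497 was the highest of the 8. The log2 fold change was 0.17, with a 95% confidence interval from -0.89 to 1.23 (adjusted p = 0.815). Without control_6497 it was 0.63 (adjusted p = 0.209).

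**Figure D1:**
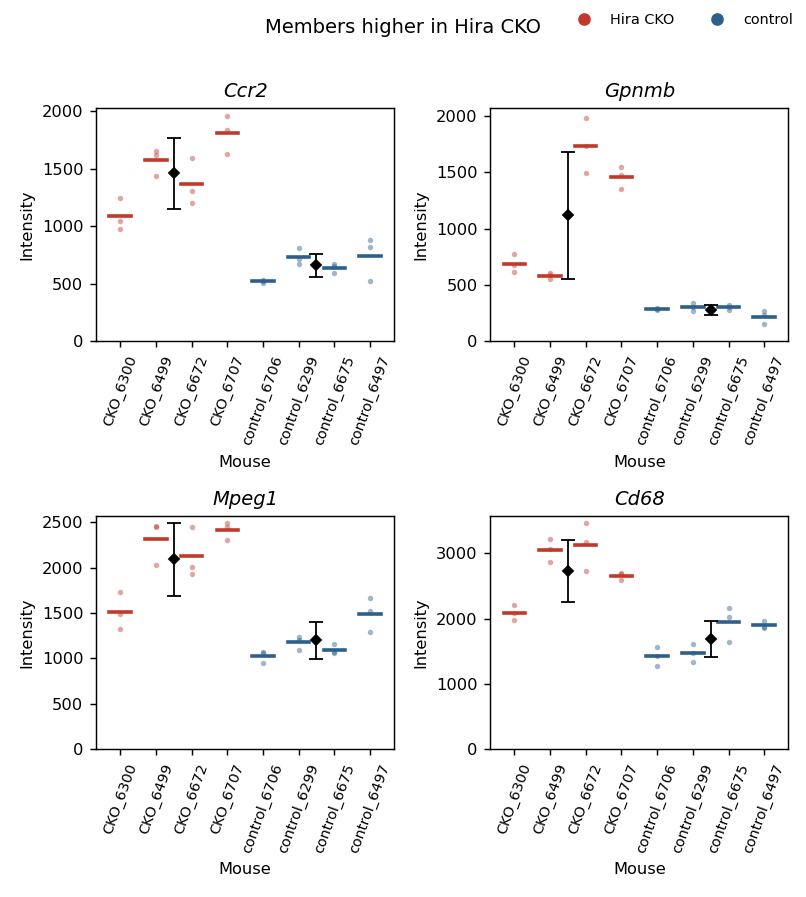
Intensity (linear scale) of the 4 called genes in each mouse, with the 4 Hira CKO mice in red on the left and the 4 control mice in blue on the right. Dots are single arrays, bars the mean of the 3 arrays of a mouse, and black diamonds with whiskers the group mean ± SD over mice. In each panel the lowest Hira CKO bar lies above the highest control bar, by the least for Mpeg1 (1517 against 1493).

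Gpnmb and Lgals3 belong to the genes that macrophages switch on after taking up damaged cells. Gpnmb had intensities of 690.6, 583.9, 1736 and 1458 in the Hira CKO mice, against 287.7, 305.3, 302.1 and 218.7 in the control mice. The groups did not overlap in mice or in single arrays, and the Hira CKO mice split into a lower pair, CKO_6300 and CKO_6499, and a higher pair, CKO_6672 and CKO_6707. The means were 1117 ± 567 in Hira CKO and 278.4 ± 40.6 in control (SD, n = 4 each), which is a log2 fold change of 1.87 with a standard error of 0.34 (adjusted p = 0.0120). A dim probe of Gpnmb read from 33.43 to 70.85 in Hira CKO mice and from 65.23 to 78.97 in control mice, with a log2 fold change of -0.06 (standard error 0.39). Of its arrays, 1 of control_6299 was at the floor, and without that array the difference was -0.63. That probe did not follow the brighter one, and the mean of both probes, floored array included, was 0.91 and missed the threshold (adjusted p = 0.0555). Lgals3, which encodes galectin-3, had a log2 fold change of 0.10 (95% confidence interval -0.11 to 0.31), with intensities from 300.3 to 349.4 in Hira CKO mice and from 271.8 to 319.5 in control mice.

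Among the lineage and surface markers, 2 of the 7 measured were higher. Mpeg1 had intensities of 1517, 2314, 2129 and 2415 in Hira CKO mice, against 1027, 1180, 1096 and 1493 in control mice. Mouse CKO_6300 was the low one of the Hira CKO mice and lay just above control_6497, the high one of the controls. The means were 2094 ± 402 in Hira CKO and 1199 ± 206 in control (SD, n = 4 each), with a log2 fold change of 0.79 and a standard error of 0.17 (adjusted p = 0.0223). A dimmer Mpeg1 probe read 150.5, 170.0, 170.6 and 139.6 in Hira CKO mice and 144.9, 152.4, 137.8 and 144.5 in control mice, where the groups overlapped, with a log2 fold change of 0.13 (standard error 0.10).

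Cd68 had intensities of 2091, 3048, 3122 and 2654 in Hira CKO mice, against 1420, 1468, 1941 and 1895 in control mice. The groups did not overlap between mice, although single arrays did, with 1976 the lowest of Hira CKO and 2155 the highest of control. The means were 2729 ± 472 in Hira CKO and 1681 ± 275 in control (SD, n = 4 each), with a log2 fold change of 0.70 and a standard error of 0.16 (adjusted p = 0.0272). Cd68 and Mpeg1 were the less firm of the 4 calls. With 1 mouse left out, Cd68 kept its call in 3 of 8 fits and Mpeg1 in 2 of 8, with adjusted p up to 0.0699 for Cd68 and 0.0672 for Mpeg1. Both were called without CKO_6300 and without control_6497, Cd68 was also called without control_6675, and each other mouse left out lifted them past the threshold. Their log2 fold changes in these fits stayed between 0.62 and 0.82 for Cd68 and between 0.72 and 0.94 for Mpeg1.

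The other markers of this group did not pass the test. Ptprc, which encodes the CD45 of all leukocytes, had intensities of 1267, 1958, 1627 and 1832 in Hira CKO mice, against 1277, 1341, 1535 and 2219 in control mice. The groups overlapped along their whole range, and the log2 fold change was 0.09 (95% confidence interval -0.37 to 0.54, adjusted p = 0.777). A dim Ptprc probe read from 54.67 to 83.61 in Hira CKO mice and from 59.64 to 105.0 in control mice. Cd14, a receptor for bacterial lipopolysaccharide, had 2728, 3032, 3644 and 4156 in Hira CKO mice, against 3749, 3497, 3950 and 4368 in control mice. Of the Hira CKO mice, 1 lay above the control median, and the log2 fold change was -0.22 (95% confidence interval -0.54 to 0.10, adjusted p = 0.273).

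Adgre1, listed under its older name Emr1, encodes a surface protein by which mouse macrophages are commonly recognized. It had intensities of 2074, 2518, 3153 and 3466 in Hira CKO mice, against 2027, 2613, 2902 and 10533 in control mice. The other 3 control mice lay within about the same range as the Hira CKO mice, while control_6497 was far above all others, on each of its arrays. The log2 fold change of -0.38 (95% confidence interval -1.43 to 0.68, adjusted p = 0.580) became 0.14 without that mouse. Aif1, the gene of the macrophage protein IBA1, showed the same mouse apart, with 888.4, 652.0, 1049 and 1026 in Hira CKO mice and 685.6, 1001, 1091 and 2897 in control mice. Its log2 fold change was -0.45 (adjusted p = 0.435), and -0.02 without control_6497. Laptm5, a lysosomal protein of blood cells, was also highest in control_6497 (18504) and had a log2 fold change of -0.05.

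The growth factor, its receptor and the lineage factor differed little. Csf1r, the receptor for CSF1, had intensities of 7455, 6660, 8039 and 11046 in Hira CKO mice, against 6967, 9332, 9377 and 11476 in control mice. The ranges were nearly the same, with CKO_6707 high among the Hira CKO mice and control_6497 high among the controls, and the log2 fold change was -0.17 (95% confidence interval -0.60 to 0.27, adjusted p = 0.552). Spi1, which encodes PU.1, had a log2 fold change of -0.13 (95% confidence interval -0.38 to 0.13), and Csf1 one of 0.04 (95% confidence interval -0.35 to 0.43). Csf3r, the receptor for the neutrophil growth factor G-CSF, had a log2 fold change of -0.03 (95% confidence interval -0.55 to 0.49). None of the 4 genes of this role passed the test, with adjusted p from 0.436 to 0.945.

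The scavenger and mannose receptors, which bind and take up modified lipoproteins, haemoglobin and sugars, did not pass the test in any of 4 genes. Mrc1, the mannose receptor, had intensities of 3875, 3244, 5325 and 7917 in Hira CKO mice, against 5500, 5203, 5861 and 4566 in control mice. Hira CKO mice lay on both sides of the narrow control range, and the log2 fold change was -0.16 (95% confidence interval -0.72 to 0.40, adjusted p = 0.663). Cd163, the receptor for haemoglobin bound to haptoglobin, had 1148, 693.2, 760.4 and 1644 in Hira CKO mice, against 1964, 1876, 1442 and 1419 in control mice. Mice CKO_6300, CKO_6499 and CKO_6672 lay below all control mice and CKO_6707 lay among them. The log2 fold change was -0.73 with a standard error of 0.27 (95% confidence interval -1.34 to -0.12), and it missed the threshold (adjusted p = 0.0903). Without CKO_6707 it was -0.97 (adjusted p = 0.0312), the only 1 of 8 fits with a mouse left out in which Cd163 was called. Over the 8 fits it ran from -0.97 to -0.56, with adjusted p in limma up to 0.184.

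Marco, a scavenger receptor of macrophages in spleen, lung and serous cavities, was low in 7 of the 8 mice. It had 70.52, 66.75, 61.78 and 40.75 in Hira CKO mice, against 72.07, 85.21, 92.83 and 894.3 in control mice. The groups did not overlap between mice, by a small step for 3 of the control mice and by a large one for control_6497. Single arrays did overlap, from 37.27 to 92.71 in Hira CKO and from 29.55 to 1036 in control. The log2 fold change was -1.31 (95% confidence interval -3.00 to 0.39, adjusted p = 0.230), and -0.43 without control_6497. After quantile normalization without control_6497, a setting chosen after seeing the data, it was -0.09. Msr1, the class A scavenger receptor, had a log2 fold change of 0.17 (95% confidence interval -0.41 to 0.75) and its highest value, 1446, in CKO_6707.

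**Figure D2:**
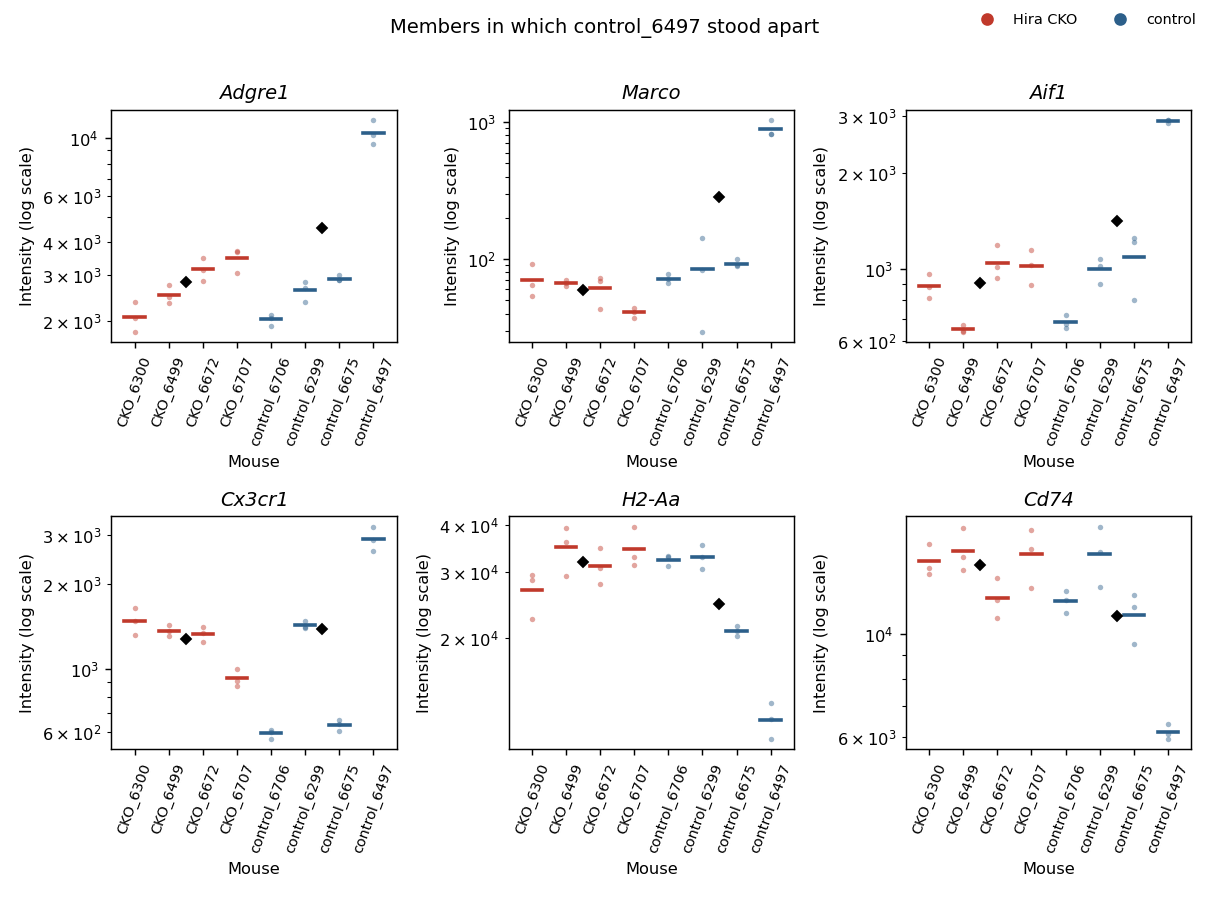
Intensity (log scale) of 6 genes in each mouse, with the 4 Hira CKO mice in red on the left and the 4 control mice in blue on the right. Dots are single arrays, bars the mean of the 3 arrays of a mouse and black diamonds the group mean over mice. Mouse control_6497 is the highest of the 8 mice for Adgre1 (10533), Marco (894.3), Aif1 (2897) and Cx3cr1 (2895) and the lowest for H2-Aa (12070) and Cd74 (6140).

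The Fc receptors, the receptors that signal through immunoreceptor tyrosine-based motifs and their partners gave 0 calls among 7 measured genes, with log2 fold changes from -0.12 to 0.58. The receptors for immunoglobulin G were near 0, at -0.12 for Fcgr1, 0.09 for the inhibitory Fcgr2b and -0.12 for Fcgr3, and Fcer1g, the signalling chain of the activating receptors, was at -0.07. A very dim probe of Fcgr2b read 30.04, 13.39, 2.675 and 2.233 in Hira CKO mice and 23.19, 43.13, 22.50 and 29.60 in control mice, with 4 arrays at the floor. It lies among the least certain values of the arrays. Trem2, a receptor of phagocytes for lipids and debris, had 762.4, 872.7, 1063 and 1412 in Hira CKO mice, against 902.1, 717.1, 761.9 and 641.5 in control mice. All 4 Hira CKO mice were above the control median but the ranges overlapped, and the log2 fold change was 0.49 (95% confidence interval 0.02 to 0.96, adjusted p = 0.124). A single array of control_6299, its array number 2, read 225.1, against 987.1 and 939.1 on its other arrays. With array number 2 of every mouse left out, the log2 fold change of Trem2 was 0.26 (adjusted p = 0.46 in limma). Clec7a, the receptor dectin-1 for fungal glucans, was at 0.58 (adjusted p = 0.158) and Clec4n, the receptor dectin-2, was at 0.23 (adjusted p = 0.363), each with all 4 Hira CKO mice above the control median.

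The phagocyte NADPH oxidase makes superoxide, and its cytosolic subunits Ncf1 and Ncf4 had log2 fold changes of -0.13 and -0.07 (adjusted p = 0.594 for Ncf1 and 0.879 for Ncf4). The membrane subunits Cybb and Cyba had no value here. Complement C1q, which macrophages secrete and which tags debris for uptake, did not pass the test in any of its 3 chains, with log2 fold changes from -0.30 to -0.20. C1qa had intensities of 22441, 22235, 27631 and 39809 in Hira CKO mice, against 28287, 28396, 34813 and 44913 in control mice. Mice CKO_6300, CKO_6499 and CKO_6672 lay below all control mice and CKO_6707 above 3 of them, and the log2 fold change was -0.30 (95% confidence interval -0.80 to 0.20, adjusted p = 0.347). C1qb was at -0.20 and C1qc at -0.29, and in all 3 chains CKO_6707 was the highest of the Hira CKO mice.

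Of the class II antigen presentation genes, H2-Aa encodes the α chain of a class II molecule and Cd74 the invariant chain that guides it. H2-Aa had intensities of 26842, 34905, 31124 and 34586 in Hira CKO mice, against 32379, 32934, 20880 and 12070 in control mice. The Hira CKO mice overlapped control_6706 and control_6299, and the log2 fold change of 0.47 (95% confidence interval -0.21 to 1.15, adjusted p = 0.279) became 0.16 without control_6497. Cd74 had 14375, 15155, 11986 and 14896 in Hira CKO mice, against 11793, 14908, 11031 and 6140 in control mice. Mouse control_6497 was again the low one, and the log2 fold change was 0.43 (adjusted p = 0.229), or 0.17 without it. Dimmer Cd74 probes gave 0.12 and 0.14. A probe annotated H2AB1 can stand for the class II β chain H2-Ab1 or for a histone variant of nearly the same symbol, and was not counted as a member. It read 2597, 3477, 2959 and 2919 in Hira CKO mice and 3002, 3062, 1981 and 987.1 in control mice, with control_6497 the lowest, as for H2-Aa and Cd74.

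The polarization genes, by which alternatively activated macrophages are described, were read by Arg1 and Retnla. Arg1, which encodes arginase 1, was the only member among the dimmest 25% of genes, with 87.59, 108.2, 109.9 and 254.7 in Hira CKO mice, against 77.32, 75.29, 74.20 and 77.54 in control mice. The groups did not overlap between mice, and most of the difference lay in CKO_6707. Single arrays did overlap, from 61.78 to 274.0 in Hira CKO and from 16.75 to 129.7 in control. Both of these control extremes came from control_6299. The log2 fold change was 0.85 with a standard error of 0.31 (adjusted p = 0.0884), and it passed the threshold after quantile normalization (1.04, adjusted p = 0.0477) and without CKO_6300 (1.04, adjusted p = 0.0387). These were the only 2 of 22 alternative settings with Arg1 in which it was called. Over the 22 its log2 fold change ran from 0.51 to 1.18, with adjusted p up to 0.234. Retnla, which encodes the secreted protein RELMα, ranged from 2401 to 4410 in Hira CKO mice and from 1511 to 6347 in control mice, with a log2 fold change of 0.06 (adjusted p = 0.935). Members given with the value in every mouse beyond the 4 called genes and the defining markers were chosen after their values were seen.

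**Figure D3:**
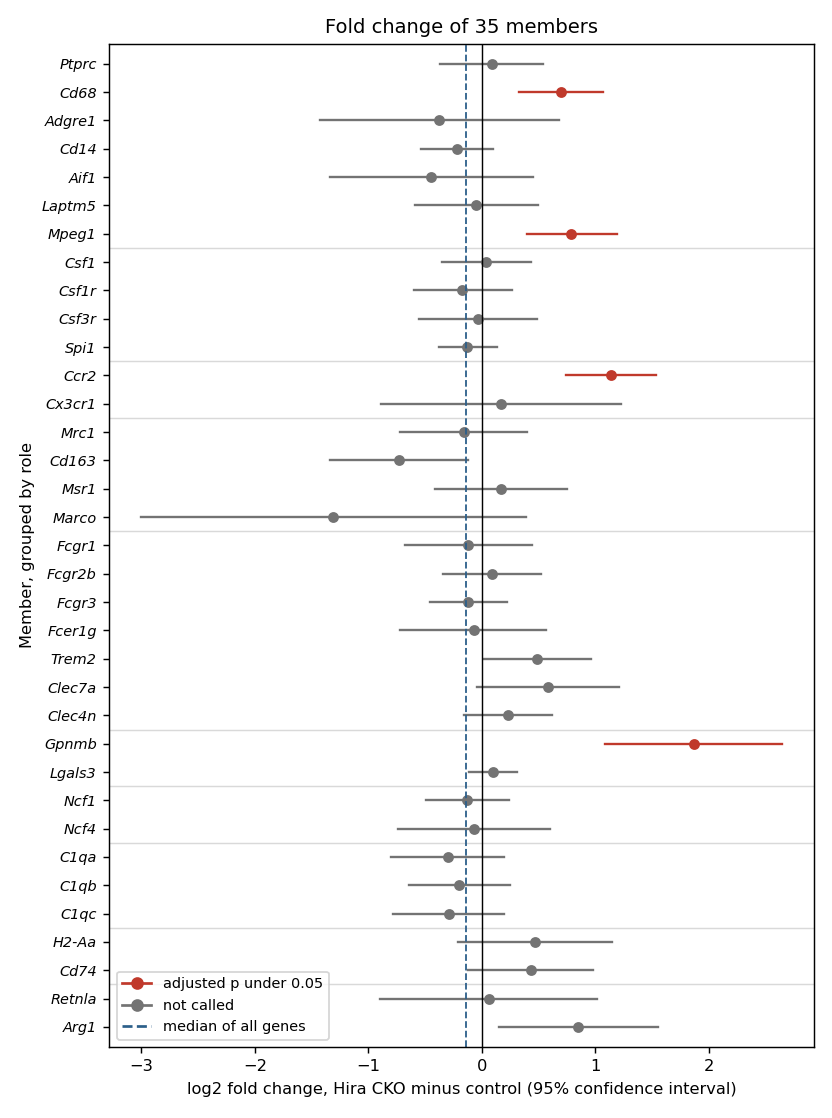
Log2 fold change of the 35 measured genes, Hira CKO minus control, as points with 95% confidence intervals from limma, in the order of their roles. Called genes are red, others grey, and the dashed line is the median of all genes (-0.14). Intervals of the called Ccr2, Gpnmb, Mpeg1 and Cd68 and of the uncalled Arg1 and Trem2 lie above 0, that of Cd163 lies below 0, and that of Marco is the widest, from -3.00 to 0.39.

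Counted over the list, 6 of the 35 members (17.1%) had groups that did not overlap between mice, 5 higher and 1 lower, against 23.4% of all genes. These were Ccr2, Gpnmb, Mpeg1, Cd68 and Arg1, and Marco in the other direction. The share of members apart was thus below that of all genes. Before adjustment, limma gave 7 members a p under 0.05, 6 of them higher (the 4 called genes, Arg1 and Trem2) and 1 lower (Cd163). The share of all genes with such a p is not given here, so these counts cannot be read as particular to the members. After adjustment, 4.94% of all genes were higher and 9.65% lower. Averaged over the members as log2 intensity minus the mean of each gene over the mice, CKO_6300, CKO_6499, CKO_6672 and CKO_6707 stood at -0.17, -0.04, 0.08 and 0.33, and control_6706, control_6299, control_6675 and control_6497 at -0.24, -0.07, -0.09 and 0.21. Thus the mice of a group differed from each other by more than the group means, which were 0.05 and -0.05. On the same measure the group means of all genes were -0.08 in Hira CKO and 0.08 in control mice, in the other direction. Mouse CKO_6707 was the highest of its group for 22 of the 35 members and CKO_6300 the lowest for 19. Among control mice, control_6497 was the highest for 22 and control_6706 the lowest for 18.

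Control mouse control_6497 stood apart on its 3 arrays alike. Among 13296 genes with a mean intensity of at least 162 in the other 7 mice, 17 were more than 1 log2 unit above all other mice in this mouse, and Adgre1 and Aif1 were among the 17. Counted in the same way, each of the other 7 mice had 0 to 4 such genes. The 17 also held Spn, a sialoglycoprotein of leukocytes (2117, against at most 493.1 in the other mice), and Itgam, the αM integrin of myeloid cells (2150, against at most 936.9). Without this mouse 4 members were higher, the same 4 genes, 21 of 35 log2 fold changes were above 0 and their median was 0.13. The shares and the median of all genes without this mouse are not given here, so these values cannot be read as particular to the members.

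**Figure D4:**
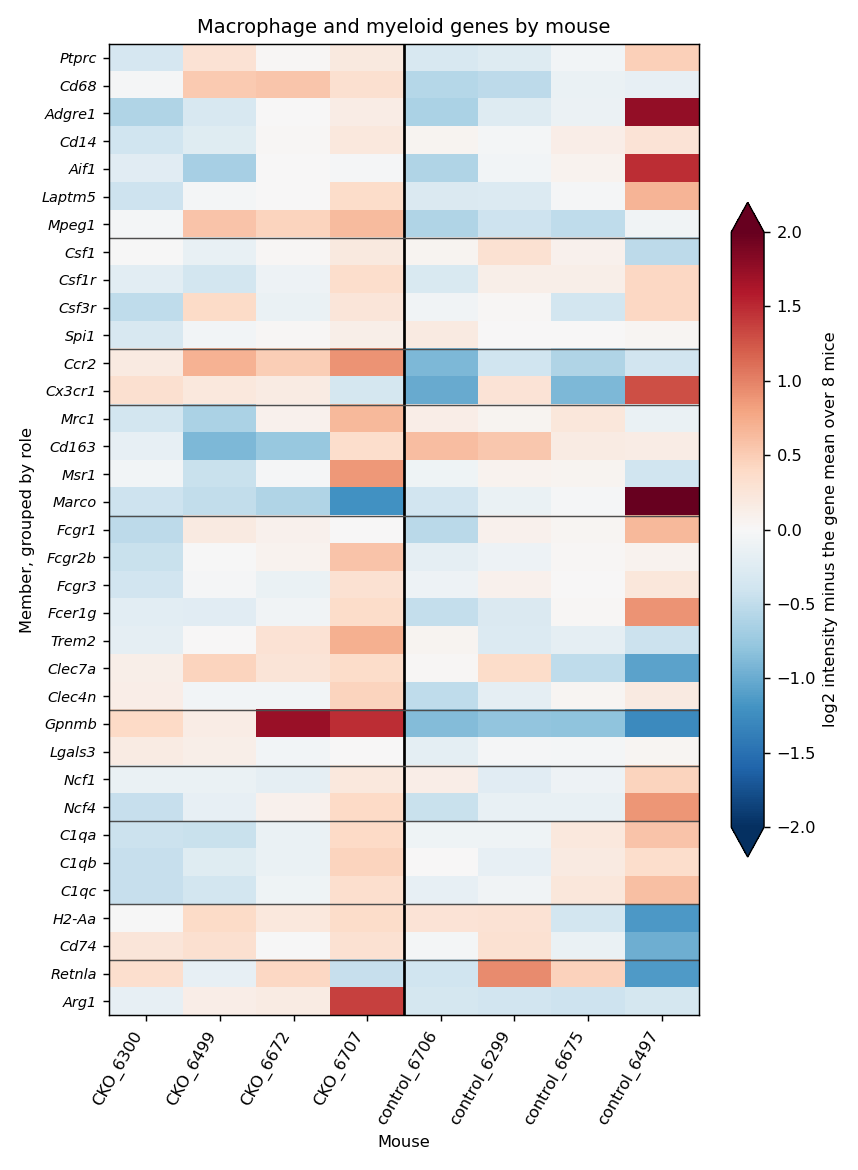
Log2 intensity of each of the 35 measured genes minus its mean over the 8 mice (colour scale from -2 to 2), with the 4 Hira CKO mice left of the black line and the 4 control mice right of it, and thin lines between roles. Ccr2 and Gpnmb are red in the Hira CKO columns, though pale for Ccr2 in CKO_6300 and for Gpnmb in CKO_6499, and blue in the control columns. So are Mpeg1 and Cd68 apart from near-white cells in CKO_6300, in control_6497 and, for Cd68, in control_6675. Adgre1, Aif1, Marco and Cx3cr1 are strongly red in control_6497.

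Further lists of 14 pathways and cell types set these genes in context, with no gene in common with the members. Their counts stand beside 4.94% of all genes higher and 9.65% lower, or 7.28% and 5.69% after quantile normalization. Of 24 measured genes of lipid-laden and phagocytic macrophages, 4 were higher and 4 lower, or 5 and 2 after quantile normalization. Spp1, which encodes the secreted matrix protein osteopontin, had 2555, 756.2, 2945 and 9893 in Hira CKO mice, against 237.0, 242.5, 185.4 and 155.9 in control mice, a log2 fold change of 3.77 with a standard error of 0.64 (adjusted p = 0.00905). The Hira CKO mice spread widely, and the lowest of them lay above all control mice. Ctsk, which encodes the lysosomal protease cathepsin K, had 4801, 4505, 6585 and 5205 in Hira CKO mice, against 1434, 1386, 1548 and 1218 in control mice (log2 fold change 1.90, adjusted p = 0.000147), and Ctsl, the gene of cathepsin L, was higher by 0.67. Cd36, the fatty acid transporter and scavenger receptor, fell by 0.59 on the log2 scale (12986 ± 1360 in Hira CKO and 19540 ± 2320 in control, SD, n = 4 each). Abcg1 was also higher, Plin2 was lower, and Ctsd and the dim Cd63 were lower but were not called after quantile normalization, under which Npc2 was higher. Several of these genes are also expressed by cardiomyocytes and fibroblasts, and the cells they came from were not tested.

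Among 40 measured genes of a further list of macrophage and monocyte markers, 2 were higher and 2 lower. That is about the share of all genes that were higher (4.94%) and less than the share that were lower (9.65%). Csf2ra, the α subunit of the receptor for the growth factor GM-CSF, had 6270, 7080, 5547 and 6244 in Hira CKO mice, against 3076, 2756, 2517 and 3167 in control mice (log2 fold change 1.13, standard error 0.11, adjusted p = 0.000895). Each Hira CKO mouse lay far above each control mouse. Gas6, a bridge between dying cells and phagocytes, was higher by 0.49 (adjusted p = 0.00973), the phospholipase gene Pla2g15 fell by 0.43, and the dim Csf2, the gene of GM-CSF itself, fell by 0.98 but was at 0.10 after quantile normalization. Of 18 complement genes, Hc, Cfb and C8b were higher, by 0.44, 0.91 and 0.69, and 0 were lower. Of 7 partners of class II presentation, Ifi30, a thiol reductase of the lysosome, was higher by 0.53 (adjusted p = 0.0479 in limma). The groups overlapped slightly for Ifi30, with CKO_6499 at 6365 and control_6706 at 6396. Of 20 inflammatory cytokines and mediators, Tgfb1 fell by 0.69 (1495 ± 200 in Hira CKO and 2407 ± 163 in control, SD, n = 4 each, adjusted p = 0.00805) and 0 were higher, or 2 after quantile normalization (Il1rn and Il6). The leukocyte signalling list (25 genes) and the partners of the phagocyte oxidase (7 genes) had 0 calls in limma, with 3 higher and 2 lower before adjustment among the signalling genes and 1 higher and 1 lower among the oxidase partners.

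**Figure D5:**
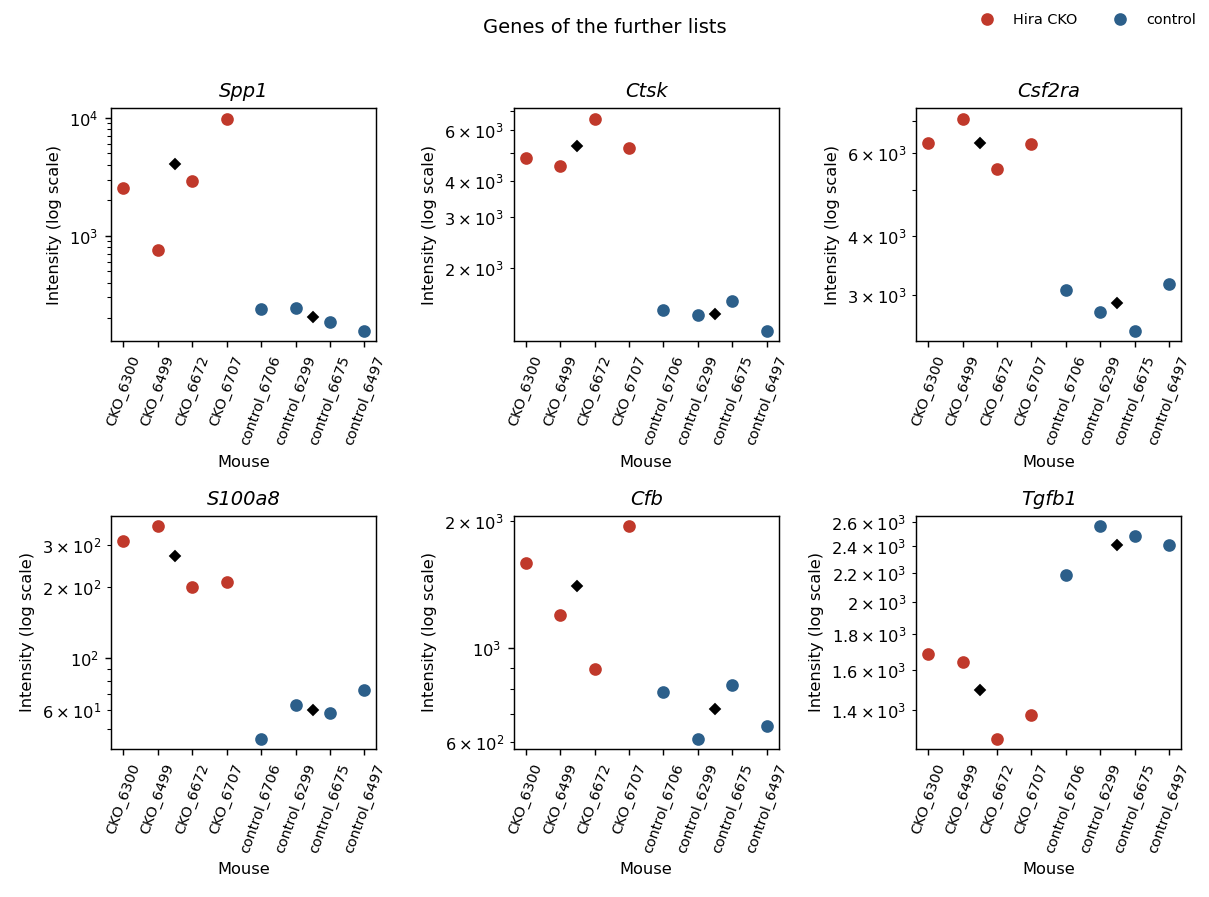
Intensity (log scale) of 6 genes of the further lists in each mouse, with the 4 Hira CKO mice in red on the left and the 4 control mice in blue on the right. Dots are the mean of the 3 arrays of a mouse and black diamonds the group mean. Spp1, Ctsk, Csf2ra, S100a8 and Cfb are higher in each Hira CKO mouse than in any control mouse, and Tgfb1 is lower.

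Other leukocytes can also carry some of the called genes, and their markers are given beside them. Of 18 neutrophil genes, 2 were higher and 2 lower, and the lowest level of any of them in a mouse was 7.640. S100a8, a calcium-binding protein of neutrophils and monocytes, had 310.9, 360.3, 200.0 and 210.3 in Hira CKO mice, against 45.57, 63.27, 58.67 and 72.77 in control mice (log2 fold change 2.39, adjusted p = 0.00182). Its control levels all lay under 162, the mean intensity below which a gene is called dim here. Lcn2, which encodes the iron-trapping lipocalin-2, had 2489, 5777, 3076 and 8098 in Hira CKO mice, against 1145, 782.6, 1393 and 1161 in control mice (log2 fold change 1.98, adjusted p = 0.0120). The dim granule genes Elane and Ngp fell by 0.62 and 0.49, but were at -0.18 and -0.15 and not called after quantile normalization. The summed intensity of the neutrophil list ran from 9373 to 16268 in Hira CKO mice and from 7336 to 9386 in control mice, and without Lcn2 from 6883 to 9979 in Hira CKO mice and from 6054 to 8225 in control mice, which overlap. Their part in the differences of Ccr2, Gpnmb, Mpeg1 and Cd68 was not tested.

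Of 16 dendritic cell genes, the dim Flt3 was higher by 0.66 and the dim Xcr1 fell by 0.54, and Xcr1 was at -0.04 after quantile normalization, with a summed intensity of the list from 21135 to 23563 in Hira CKO mice and from 22774 to 28038 in control mice. Of 13 markers of T, B, NK and mast cells, the mast cell gene Cpa3 fell by 1.34, and the list summed to between 13855 and 15068 in Hira CKO mice and between 12987 and 16008 in control mice. Of 10 fibroblast markers 0 were called in limma, with 2 higher and 1 lower before adjustment, and the list summed to between 402203 and 469049 in Hira CKO mice and between 415947 and 436708 in control mice. Of 10 endothelial markers 0 were called, with 0 higher and 3 lower before adjustment, and the list summed to between 284470 and 309260 in Hira CKO mice and between 307512 and 337252 in control mice. Of 8 measured cardiomyocyte markers, Nppa, the gene of atrial natriuretic peptide, was higher by 1.74 (adjusted p = 0.000479), and the list summed to between 2159386 and 2361718 in Hira CKO mice and between 1793571 and 1935235 in control mice. Without Nppa the sums overlapped, with 1808081 to 1994726 in Hira CKO mice and 1668658 to 1814513 in control mice. The red cell list had 3 measured genes and 0 calls, and 0 before adjustment, with sums from 380.9 to 5008 in Hira CKO mice and from 1622 to 4140 in control mice. The part of these other cell types in the values of the macrophage and myeloid genes was not tested.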

How the data were processed

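Total RNA of 8 left ventricles (4 Hira CKO and 4 control mice, 3 single-colour MouseOne Array Plus arrays each) was analysed from the values that the authors deposited, which are linear probe intensities after median scaling of each array. The background subtraction behind the negative values is not stated. Of 26423 probes, 20377 had 1 gene symbol in the platform annotation and 6046 had none, and they stood for 17742 genes after older symbols were updated through RefSeq. Intensities under 1 were raised to 1, the mean log2 value over its 3 arrays was taken for each mouse, and the probe with the highest mean log2 value stood for a gene. Groups were compared in limma 3.58.1 (R 4.3.3; lmFit and eBayes, no covariate, 2-sided, Benjamini-Hochberg over all genes, threshold 0.05), after a test of the fit on simulated data. Genes among the lowest 25% by mean intensity (under 162) are called dim. Promoters and plots were handled in Python 3.11.15 (matplotlib 3.10.9, pandas 2.3.3).

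The members, their roles and the further lists were chosen with earlier results of these data known. Named were each called member, the defining markers Ptprc, Cd68, Adgre1, Csf1r, Cd14, Lyz2, C1qa, H2-Ab1 and Mrc1, and up to 4 called genes of each further list with the smallest p. Alternatives were an offset of 50, cyclic loess or quantile normalization, dim genes left out, every probe tested, the mean of all probes, a robust prior with an intensity trend, the mouse as a random block of the 24 arrays, the array number or neighbouring mouse numbers as a block, the methods' t-test and thresholds, and each mouse and array number left out. Array numbers did not pair the arrays of different mice (median correlation of deviations -0.0426 for the same number and 0.0292 for others). Neighbouring mouse numbers join each Hira CKO mouse with a control mouse. The labels do not say that the mice were paired, and the main fit did not pair them. The number of arrays, and of the mice they came from, limits the precision.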

Additional observations from a re-analysis of the deposited data

Results flagged for a closer look

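Within each group of 4 mice, the distance of the highest or lowest mouse to its nearest neighbour was set against the range of the group on the log2 scale (Dixon's 95% limit). Over 70 such groups of the 35 measured genes, 3 passed the limit, and chance alone passes about 1 in 20 groups. Marco was at 894.3 in control_6497, against 72.07 to 92.83 in the other control mice. Gpnmb was at 218.7 in control_6497, against 287.7 to 305.3 in the others. Ncf1 was at 1457 in CKO_6707, against 1107 to 1151 in the other Hira CKO mice.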

How the results depend on the processing

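Among the 23 alternative settings, Ccr2 was called in all and Gpnmb in all but the mean of its probes. The count of members higher in Hira CKO, 4 as reported, was 2 under the methods' t-test, under the methods' thresholds and with array number 3 left out, where Cd68 and Mpeg1 missed the threshold, 3 with the mean of all probes, 5 with arrays blocked by mouse (Clec7a added, adjusted p = 0.0411), with neighbouring mouse numbers as a block (Trem2 added, adjusted p = 0.0288) and after quantile normalization (Arg1 added), and ran from 2 to 5 with single mice left out. The count of members lower, 0 as reported, was 1 with arrays blocked by mouse (Cd163), with array number as a replicate block (Cd163, with the members higher still 4), with neighbouring mouse numbers as a block (Cd163), with every probe tested and with the mean of all probes (Fcgr2b, through its very dim probe), and ran from 0 to 1 with single mice left out. The fits blocked by mouse or array number used single arrays and 1 within-mouse correlation for all genes (0.305 with arrays blocked by mouse). Where the arrays of a mouse agree more closely than this, p-values come out too small. Cd163 had a median SD within mice of 0.07, against 0.13 over the members. Its calls and that of Clec7a in these fits rest on no more mice than the main fit. Over all genes, 876 were higher and 1712 lower, against 1292 and 1010 after quantile normalization.

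Some uncalled members changed sign, and only Fcgr2b was then called, at -0.45 with the mean of all probes, a setting that also put Ptprc at -0.12. Quantile and cyclic loess normalization each put Laptm5 at 0.03 and Fcer1g at 0.00. Leaving out array number 1 gave 0.05 for Laptm5, 0.14 for Csf3r and 0.02 for Fcer1g, and leaving out array number 3 gave -0.01 for Csf1 and 0.00 for Retnla. Quantile normalization without control_6497, chosen after seeing the data, gave 0.16 for Adgre1, 0.25 for Laptm5, -0.06 for Csf1, 0.01 for Csf1r, 0.13 for Csf3r, 0.14 for Fcgr1, 0.29 for Fcer1g, 0.02 for Ncf1, 0.22 for Ncf4 and -0.27 for Retnla. With single mice left out, log2 fold changes ran from -0.01 to 0.26 for Ptprc, -0.65 to 0.14 for Adgre1, -0.18 to 0.17 for Laptm5, -0.13 to 0.14 for Csf1, -0.16 to 0.15 for Csf3r, -0.13 to 0.63 for Cx3cr1, -0.40 to 0.02 for Mrc1, -0.09 to 0.35 for Msr1, -0.32 to 0.08 for Fcgr1, -0.08 to 0.26 for Fcgr2b, -0.24 to 0.22 for Fcer1g, -0.24 to 0.21 for Ncf4 and -0.31 to 0.38 for Retnla. The cause of these changes was not tested.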
